A study of Mus musculus with 6 samples.

Results

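The 10 genes followed here mark tissue macrophages or encode Fc gamma receptors, and were measured in the hearts of mice without cyclophilin D. The genes were Fcgr1, Fcgr2b, Fcgr3, Cd68, Mrc1, Cd163, Lyve1, Csf1r, Adgre1 and Cd14, taken by name as every probe set whose annotation holds 1 of these symbols alone. Each of the 10 genes had 1 such probe set, and 19938 genes had one of this kind in all. Of 35557 probe sets in the table, the 23410 with a gene symbol were tested. The 6 samples were heart RNA on 1 Affymetrix Gene 1.0 ST array each, 3 from Ppif-/- mice and 3 from wild-type (WT) mice, all aged 8 weeks and labelled C57BL/6, with no treatment named. The Ppif-/- mice carry a global knockout of Ppif, the gene for cyclophilin D of the mitochondrial matrix, and were bred onto C57BL/6 after starting on Sv129. The sources used here do not give the number of backcrosses, the sex of the mice or whether WT mice were littermates. The series looked for transcripts that differ ahead of cardiac dysfunction.

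Macrophages live in the healthy heart beside the muscle cells, where they clear debris and dying cells and sense injury. Fc gamma receptors bind the constant part of IgG: activating receptors signal through an associated chain with an activation motif, and the inhibitory receptor encoded by Fcgr2b dampens that signal. The mannose receptor (Mrc1), the haemoglobin scavenger receptor (Cd163) and the hyaluronan receptor (Lyve1) are widely used marks of resident macrophages, and Csf1r is the receptor on whose ligands these cells depend.

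The differences of the 10 genes had no single direction. Fcgr3 and Cd68 rose in Ppif-/- hearts, by 1.60-fold and 1.48-fold, while the other 8 did not pass the test, and 5 of the 10 differences lay above 0 and 5 below. Cd163 and Cd14 had the lowest differences, at -0.53 ± 0.12 and -0.66 ± 0.22 on the log2 scale (SE of the fit, here and below), and neither passed. The test was limma across the 23410 probe sets, with a Benjamini-Hochberg adjusted p of 0.05 as the threshold. It called 2 of the 10 genes, both higher, where 1.09% of all tested probe sets were called, 0.624% higher and 0.461% lower. An unadjusted p under 0.05 was found for 5 of the 10 genes (Fcgr3, Cd68, Mrc1, Cd163 and Cd14) and for 12.9% of all tested probe sets. The median difference was 0.01 over the 10 genes and 0.00 over all tested probe sets. In 6 of the 10 genes the hearts of the genotypes did not overlap, 3 with Ppif-/- above and 3 below. The same held for 19.8% of all tested probe sets, 9.21% above and 10.6% below. The genes were chosen with earlier results of these data known, so these counts describe them and do not test them. In RNA from bulk heart, fewer cells of a type and less RNA per cell cannot be told apart.

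**Figure D1:**
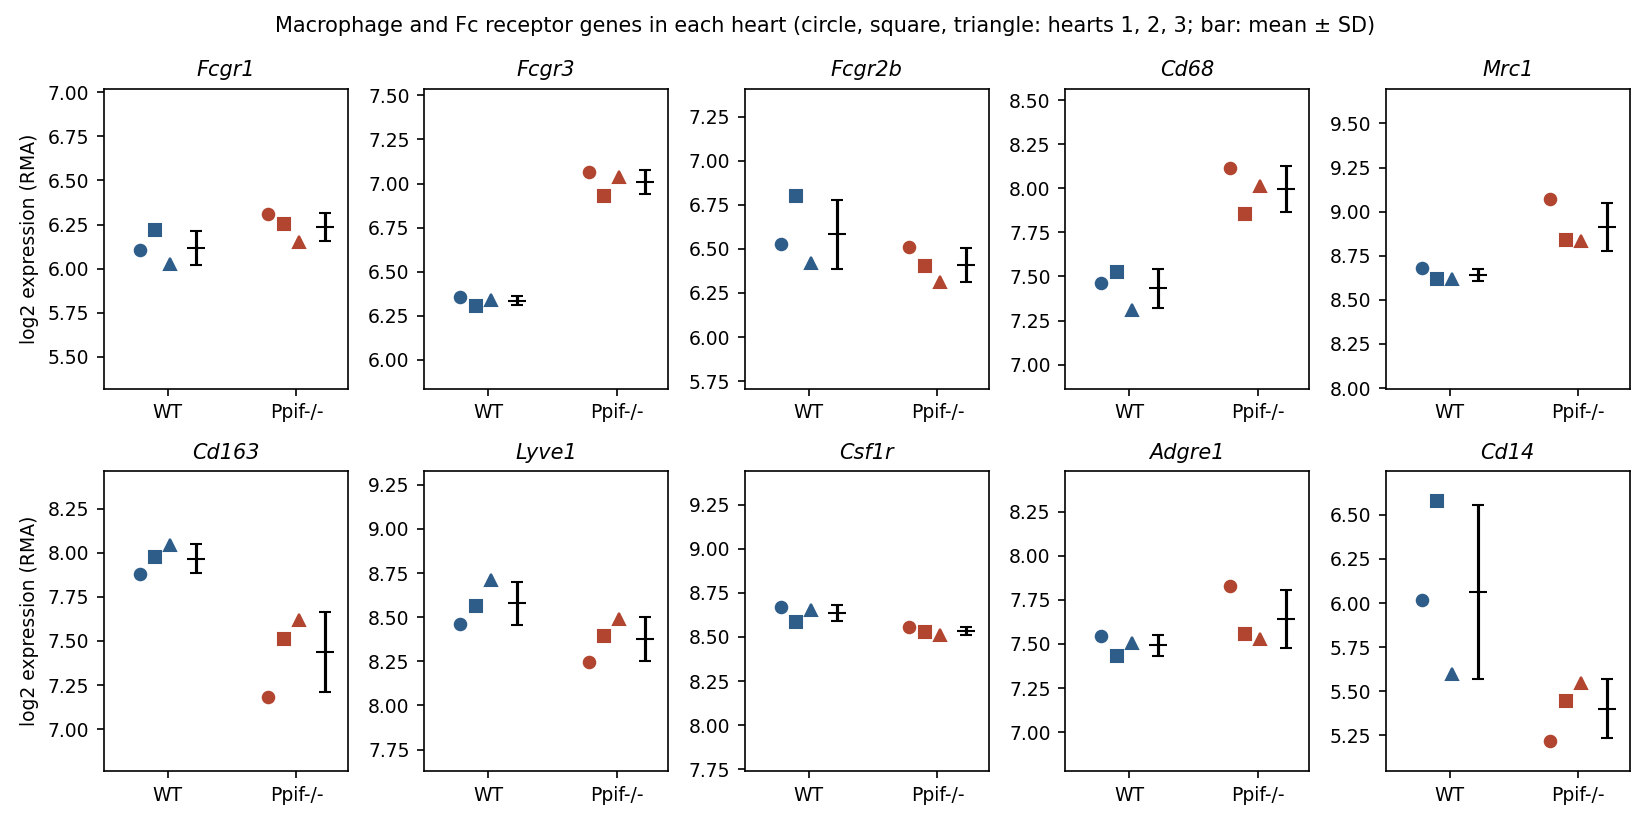
Log2 expression of the 10 genes in each heart, 1 panel per gene, with WT in blue, Ppif-/- in red, symbols for hearts 1 to 3 of each genotype, and the mean ± SD (n = 3) in black. All panels span the same range of log2 units. The genotypes lie apart for Fcgr3, Cd68, Mrc1, Cd163, Csf1r and Cd14 and overlap for the other 4.

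Ppif, the targeted gene, was at 6.00, 6.25 and 6.44 in the Ppif-/- hearts and at 11.44, 11.28 and 11.49 in the WT hearts, matching the labels. The arrays had medians of 6.03 to 6.11. The mean over 8 cardiomyocyte markers was 12.50 to 12.53 in Ppif-/- and 12.47 to 12.53 in WT hearts, and 0 of the 8 passed in limma, with 1 at an unadjusted p under 0.05. No detection calls were given, so whether a dim transcript was present was not tested. WT heart 2 stood apart from the other WT hearts in some listed genes. Hmox1, the haem oxygenase gene, was at 10.58 in it and at 7.18 and 7.27 in WT hearts 1 and 3, and Col3a1, a fibrillar collagen, at 8.98 against 9.78 and 9.85. It was also the highest WT heart for Spi1 (6.88), Csf3r (6.13) and Chil3 (5.27), and for Fcgr1, Fcgr2b, Cd68 and Cd14. Without WT heart 2 the differences of the genes called below were 0.66 for Fcgr3 and 0.61 for Cd68 (limma adjusted p = 0.0207 and 0.0681). RMA, the method behind the deposited values, compresses differences at low signal.

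To show what lies ahead of the genes that rose, the 250 bases before the start of Fcgr3 and Cd68 are printed beside those of Fcgr2b, the inhibitory receptor, which did not pass. They were read 5′ to 3′ on the minus strand from RefSeq's table for GRCm38.p6, a C57BL/6J assembly, at chr1:171059404-171059653, chr11:69666171-69666420 and chr1:170976072-170976321. Each window ends just before the most upstream start that the table lists for the gene, though a transcript model of Fcgr3 extends further upstream. Capitals mark GAGGAA, a core of sites for PU.1, the transcription factor encoded by Spi1 that myeloid cells depend on, and TGANTCA, the site of AP-1 factors, on either strand.
Fcgr3: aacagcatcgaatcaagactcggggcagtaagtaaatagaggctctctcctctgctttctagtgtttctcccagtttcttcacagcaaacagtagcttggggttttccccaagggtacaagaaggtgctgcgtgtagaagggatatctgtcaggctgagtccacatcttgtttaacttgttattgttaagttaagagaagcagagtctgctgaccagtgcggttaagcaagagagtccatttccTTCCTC
Cd68: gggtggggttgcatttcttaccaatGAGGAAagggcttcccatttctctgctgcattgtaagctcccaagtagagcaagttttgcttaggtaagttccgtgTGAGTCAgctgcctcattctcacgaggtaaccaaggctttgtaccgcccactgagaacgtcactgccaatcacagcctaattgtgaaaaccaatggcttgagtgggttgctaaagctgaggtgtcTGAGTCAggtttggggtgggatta
Fcgr2b: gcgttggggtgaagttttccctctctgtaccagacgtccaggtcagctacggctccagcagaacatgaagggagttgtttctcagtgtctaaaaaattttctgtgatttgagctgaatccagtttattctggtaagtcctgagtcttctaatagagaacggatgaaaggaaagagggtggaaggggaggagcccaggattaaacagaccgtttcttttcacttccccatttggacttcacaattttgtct

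The Fcgr3 window holds GAGGAA once, read on the opposite strand as TTCCTC at its very end, and no TGANTCA. The Cd68 window holds GAGGAA once near its far end and TGANTCA at 2 places, each as TGAGTCA, and no match overlaps another. The Fcgr2b window holds neither. A window was searched for 6 of the 10 genes, Fcgr1, Fcgr2b, Fcgr3, Cd68, Mrc1 and Cd163. GAGGAA lay in 4 of them (Fcgr1, Fcgr3, Cd68 and Mrc1) and in 23.1% of 27025 windows of this length ahead of genes, and TGANTCA in 1 of the 6 and in 6.85% of all windows. Csf1r and Cd14, which lie on chromosome 18, were left out of the search, and Lyve1 and Adgre1 had no window listed. The counts for the members thus do not cover all 10 genes. The matches are of letters and not shown to be sites in these hearts.

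Among the activating receptors, Fcgr3, the low-affinity receptor for IgG complexes, had the smallest p of the 10 genes. It was at 7.06, 6.93 and 7.04 in Ppif-/- hearts 1, 2 and 3 and at 6.36, 6.31 and 6.34 in WT hearts 1, 2 and 3. The WT hearts lay within 0.05 of each other, and the lowest Ppif-/- heart stood 0.575 above the highest WT heart. Means were 7.01 ± 0.07 and 6.34 ± 0.02 (SD, n = 3 each), a difference of 0.67 ± 0.07 or 1.60-fold (limma adjusted p = 0.00399). The call held without any 1 of the 6 hearts (adjusted p = 0.0148 to 0.0256). Fcgr1, the high-affinity receptor, was at 6.31, 6.25 and 6.15 in Ppif-/- and at 6.10, 6.22 and 6.03 in WT hearts. The groups overlapped, and the difference of 0.12 ± 0.08 did not pass (limma adjusted p = 0.587). It was 0.07 without WT heart 3 and 0.17 without WT heart 2.

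Fcgr2b, the inhibitory receptor, was at 6.51, 6.40 and 6.31 in Ppif-/- and at 6.53, 6.80 and 6.42 in WT hearts. WT heart 2 was the highest, the groups overlapped, and the difference of -0.17 ± 0.11 did not pass (limma adjusted p = 0.553). It was -0.07 without WT heart 2 and -0.25 without WT heart 3. Fcgr3 minus Fcgr2b, a contrast within each heart chosen after the values were seen, was 0.55, 0.53 and 0.72 in Ppif-/- and -0.17, -0.49 and -0.08 in WT hearts. It is read only as a contrast between genotypes, since levels of different probe sets are not comparable. The genotypes did not overlap, and the contrast differed by 0.85 ± 0.14 between them (SE from the group variances). Since the pair was picked on these values, the gap is a description and tests nothing. This pair was 1 of 3 compared, each with an exact permutation p of 0.1, the smallest possible for 3 hearts against 3. The extracellular parts of the receptors Fcgr3 and Fcgr2b are closely alike, and whether their probe sets share probes was not tested.

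The lysosomal glycoprotein Cd68, a common mark of macrophages, was at 8.12, 7.86 and 8.01 in Ppif-/- hearts and at 7.46, 7.53 and 7.31 in WT hearts. All Ppif-/- hearts stood above all WT hearts, with a gap of 0.33 between the groups. Means were 8.00 ± 0.13 and 7.43 ± 0.11 (SD, n = 3 each), a difference of 0.56 ± 0.09 or 1.48-fold (limma adjusted p = 0.0394). That call was lost without any 1 of the 6 hearts (adjusted p = 0.0551 to 0.145) and when probe sets without a symbol were tested too (0.124).

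Among the endocytic receptors, Mrc1, the mannose receptor, was at 9.07, 8.84 and 8.83 in Ppif-/- and at 8.68, 8.62 and 8.62 in WT hearts. The groups did not overlap, and Ppif-/- heart 1 was the highest, but the difference of 0.27 ± 0.08 did not pass (limma adjusted p = 0.216). Cd163, which takes up haemoglobin bound to haptoglobin, was at 7.18, 7.51 and 7.62 in Ppif-/- and at 7.88, 7.98 and 8.04 in WT hearts. Every Ppif-/- heart stood below every WT heart, with Ppif-/- heart 1 the lowest, and the difference of -0.53 ± 0.12 missed the threshold (adjusted p = 0.0964, and 0.0529 to 0.240 over the alternatives).

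Lyve1, the hyaluronan receptor, is also a mark of lymphatic endothelium. It was at 8.25, 8.39 and 8.49 in Ppif-/- and at 8.46, 8.56 and 8.71 in WT hearts, which overlap, and the difference of -0.20 ± 0.09 did not pass (limma adjusted p = 0.417). Of 5 measured lymphatic endothelial markers, among them Prox1 (0.01), Pdpn (-0.10) and Mmrn1 (0.12), 0 passed in limma and 0 reached an unadjusted p of 0.05. Their mean level was 7.49 to 7.63 in Ppif-/- and 7.50 to 7.63 in WT hearts.

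Csf1r, the receptor for CSF1 and IL-34, was at 8.56, 8.53 and 8.51 in Ppif-/- and at 8.67, 8.59 and 8.65 in WT hearts. The Ppif-/- hearts lay just below the WT hearts, and the difference of -0.10 ± 0.06 did not pass (limma adjusted p = 0.550). Adgre1, which encodes the F4/80 antigen, was at 7.83, 7.56 and 7.53 in Ppif-/- and at 7.55, 7.43 and 7.50 in WT hearts. Only Ppif-/- heart 1 stood clear of the others, and the difference of 0.15 ± 0.09 did not pass (adjusted p = 0.572). It was 0.05 without that heart and 0.20 without Ppif-/- heart 3.

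Cd14, the co-receptor that hands bacterial lipopolysaccharide to Toll-like receptor 4, had the widest spread of the 10 genes among the WT hearts (range 0.982). It was at 5.22, 5.44 and 5.55 in Ppif-/- and at 6.02, 6.58 and 5.60 in WT hearts. WT heart 2 was the highest, and WT heart 3 stood 0.05 above the highest Ppif-/- heart. The difference of -0.66 ± 0.22 did not pass (limma adjusted p = 0.259). It was -0.41 without WT heart 2 and -0.90 without WT heart 3. Among the Ppif-/- hearts, heart 1 was the highest in 7 of the 10 genes and the lowest in Cd163, Lyve1 and Cd14.

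**Figure D2:**
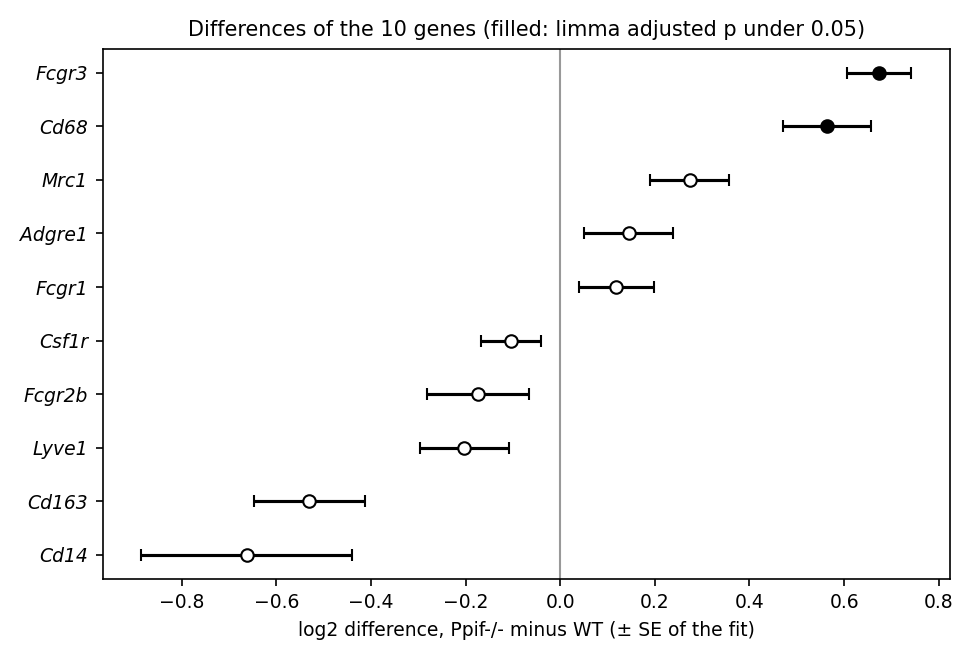
Log2 difference between genotypes (Ppif-/- minus WT) for the 10 genes, with bars for the SE of the fit and filled points where the limma adjusted p was under 0.05. Fcgr3 (0.67) and Cd68 (0.56) are filled, and Cd163 (-0.53) and Cd14 (-0.66) lie lowest with open points.

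Of 15 other measured Fc receptors and genes of their signalling, 0 passed in limma. The median difference was 0.03, and an unadjusted p under 0.05 was found for 2, both higher in Ppif-/- hearts. Fcer1g, the signalling chain that Fcgr3 and Fcgr1 need at the cell surface, was at 7.82, 7.45 and 7.48 in Ppif-/- and at 6.85, 7.11 and 6.90 in WT hearts. Its groups did not overlap, and its difference of 0.63 ± 0.12 just missed the threshold (adjusted p = 0.0582, and 0.0280 to 0.185 over the alternatives, 5 of 16 passing). Pigr, the receptor that carries IgA and IgM across epithelia, differed by 0.23 ± 0.09 from a low level (adjusted p = 0.333). The receptor Fcgr4 (0.03), the kinase Syk (-0.11) and the phosphatases Inpp5d (0.03) and Ptpn6 (-0.04), which act downstream of these receptors, had overlapping groups.

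Of 17 genes around the CSF1 receptor, 0 passed in limma and the median was -0.01. At an unadjusted p under 0.05 there were 2 higher genes and 2 lower genes. The list held the ligands Csf1 and Il34, related cytokine receptors such as Csf3r, adaptors and regulators such as Tyrobp and Socs1, and transcription factors of macrophages. Csf1 was at 8.35 ± 0.05 in Ppif-/- and 8.60 ± 0.11 in WT hearts (-0.25 ± 0.08, with an adjusted p of 0.231). The transcription factor Cebpb was at 8.50 ± 0.21 and 7.96 ± 0.39 (0.54 ± 0.19, adjusted p = 0.290). Spi1, the gene of PU.1, stood at -0.37 (adjusted p = 0.369), with overlapping groups.

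Of 16 genes of the sensing pathway around Cd14, 0 passed in limma and the median was -0.07, with 3 higher genes and 3 lower genes at an unadjusted p under 0.05. The Toll-like receptor Tlr6 was at 5.32 ± 0.18 in Ppif-/- and 5.85 ± 0.26 in WT hearts (-0.53 ± 0.14), and the adaptor Ticam1 at 6.91 ± 0.04 and 6.61 ± 0.13 (0.30 ± 0.08), each with an adjusted p of 0.167. Of 18 genes of uptake and haem handling, among them scavenger and lectin receptors, lysosomal membrane proteins and the hyaluronan synthase Has2, 0 passed in limma and the median was -0.06. An unadjusted p under 0.05 was found for 2, both higher: the hyaluronan receptor Cd44 (0.35 ± 0.12, adjusted p = 0.260) and Stab1, a scavenger receptor of macrophages and endothelium (0.26 ± 0.10, adjusted p = 0.292).

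Of 23 further markers of tissue macrophages, 0 passed in limma, and 2 higher and 2 lower genes had an unadjusted p under 0.05. The median was 0.10, and 16 of the 23 differences lay above 0, where 11526 of the 23410 tested probe sets did. The mean over the list was 7.31, 7.17 and 7.15 in Ppif-/- hearts 1, 2 and 3. In WT hearts 1, 2 and 3 it was 7.19, 7.13 and 7.23, so only Ppif-/- heart 1 lay above the WT hearts. The complement genes C1qa (0.19), C1qb (0.13) and C1qc (0.10), the pan-leukocyte gene Ptprc (-0.08) and the lysozyme gene Lyz2 (-0.03) had overlapping groups. Mertk, a receptor for the uptake of dying cells, was at 7.55 ± 0.08 in Ppif-/- and 7.17 ± 0.06 in WT hearts. Its groups did not overlap (0.38 ± 0.07, adjusted p = 0.0612, and 0.0245 to 0.195 over the alternatives). Vsig4, the complement receptor of resident macrophages, was at 5.62, 5.34 and 4.84 in Ppif-/- and at 6.02, 6.24 and 6.15 in WT hearts. It lay lower in every Ppif-/- heart, like Cd163, and its difference of -0.87 ± 0.18 missed the threshold (adjusted p = 0.0795). It passed in 3 of 15 alternatives: weighting the arrays, fitting a variance trend, or leaving out Ppif-/- heart 1 (lowest adjusted p = 0.0368).

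Markers of monocytes and MHC class II genes held 0 of 11 that passed in limma, with a median of -0.05. The 1 gene with an unadjusted p under 0.05 was Ccr2, the chemokine receptor of recruited monocytes, at 5.07, 4.64 and 5.12 in Ppif-/- and at 5.73, 5.64 and 5.54 in WT hearts. The groups did not overlap, and the difference of -0.70 ± 0.13 just missed the threshold (adjusted p = 0.0587, and 0.0188 to 0.187 over the alternatives, 4 of 15 passing). Plac8 was at 0.22 (adjusted p = 0.417), and the class II genes H2-Aa, H2-Ab1, H2-Eb1 and Cd74 stood between -0.05 and 0.07. The mean over this list was 6.42 to 6.57 in Ppif-/- and 6.59 to 6.62 in WT hearts. It is weighed down by the lowest differences, those of Ccr2 and of Chil3 (-0.41, with overlapping groups and WT heart 2 at 5.27). Of the 11 differences 4 lay above 0. The part of this list in the results of the 10 genes was not tested.

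**Figure D3:**
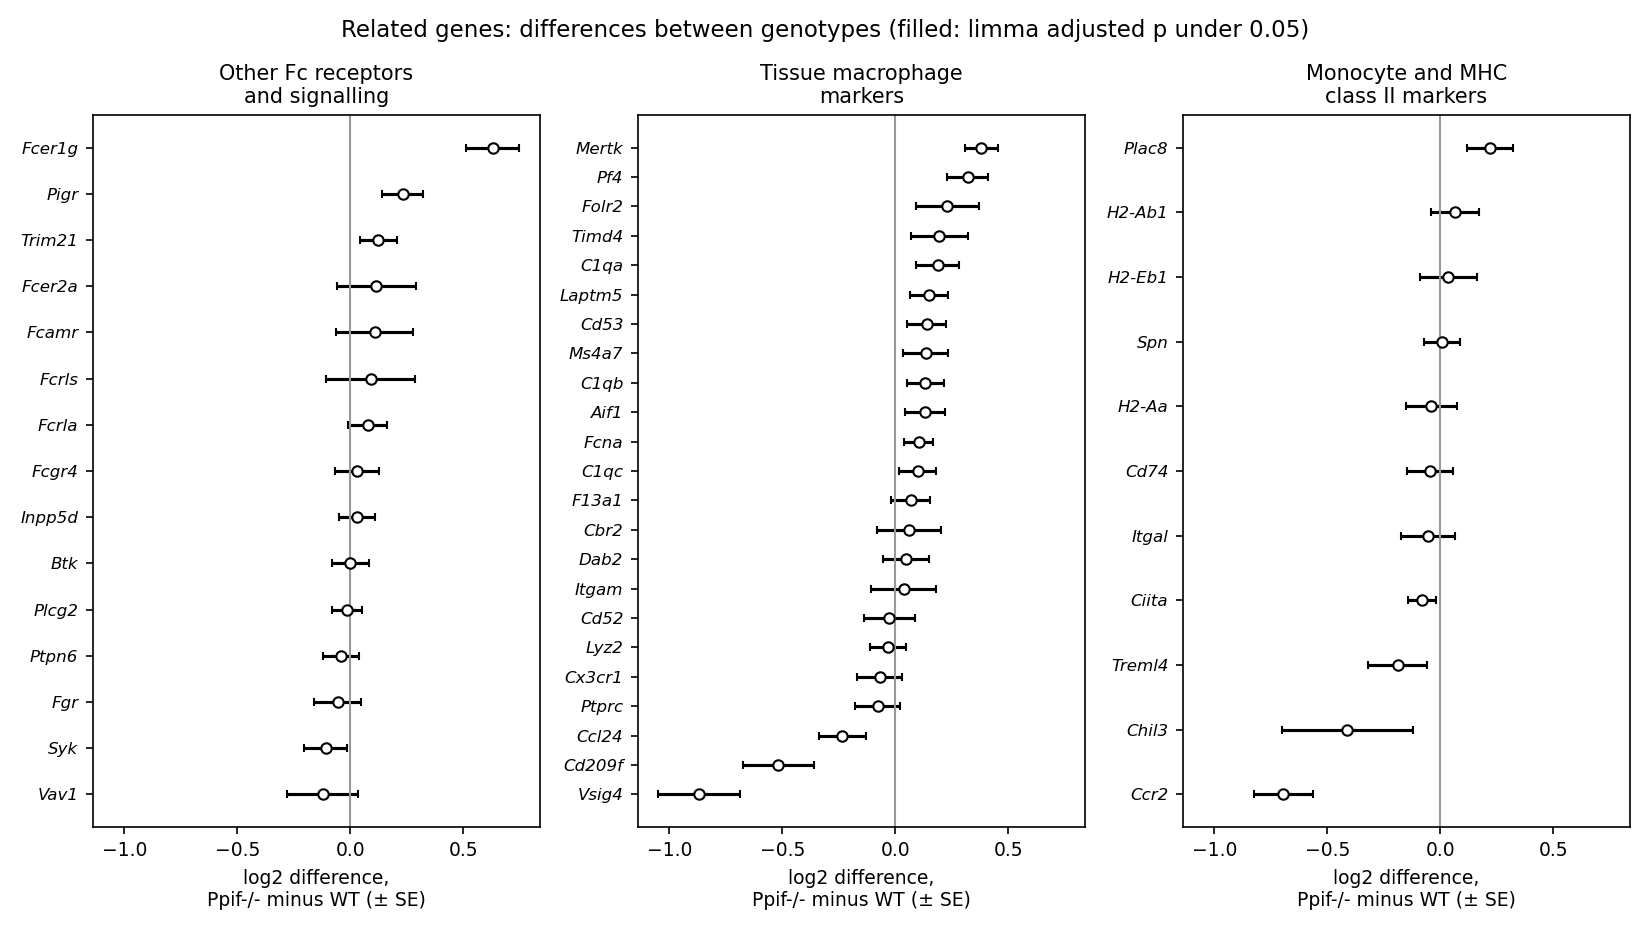
Log2 difference (Ppif-/- minus WT) with the SE of the fit for 15 other Fc receptor and signalling genes, 23 tissue macrophage markers and 11 monocyte and MHC class II markers. All points are open, since 0 passed a limma adjusted p of 0.05; Fcer1g (0.63) lies highest, and Vsig4 (-0.87) and Ccr2 (-0.70) lie lowest in their panels.

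Markers of other leukocytes were compared because B cells, neutrophils and mast cells also carry Fc receptors. In limma 0 of 10 T and NK cell, 0 of 7 B cell, 0 of 8 neutrophil, 0 of 8 mast cell and 0 of 8 dendritic cell markers passed, with 2, 2, 3, 2 and 1 at an unadjusted p under 0.05. The B cell genes Cd79a and Ms4a1 each stood at -0.29, the neutrophil genes Retnlg and S100a9 at -0.31 and -0.40, and the dendritic cell genes Zbtb46 and Siglech at -0.19 and 0.22. The mast cell genes Cpa3 and Kit stood at 0.54 and 0.40, and the cytotoxic lymphocyte genes Gzma and Cd8a at 0.21 and -0.16. Apart from Zbtb46 (mean 7.64 over the 6 hearts) and Kit (7.15), these genes were dim. Their means, from 4.15 for Gzma to 5.52 for Siglech, lay below the array medians of 6.03 to 6.11. Adjusted p-values were 0.107 for Cpa3 and 0.223 to 0.495 for the other 9. The mean over the mast cell list was 5.38 to 5.47 in Ppif-/- and 5.25 to 5.39 in WT hearts, and over the neutrophil list 4.37 to 4.56 and 4.54 to 4.80. Their part in the results was not tested.

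Among markers of the heart's other cells, 0 of 8 blood endothelial, 0 of 5 adipocyte and 0 of 2 erythroid genes passed in limma, with 0, 0 and 1 at an unadjusted p under 0.05. The genes with the smallest p were Tek (-0.18) and Pecam1 (-0.15), Retn (-0.17) and Lep (-0.13), and Alas2 (0.38) and Slc4a1 (0.01). The cardiomyocyte genes Ryr2 and Myl7 stood at -0.19 and 0.20. Of 8 fibroblast markers, Pdgfra, a growth factor receptor of fibroblasts, fell by 0.44 ± 0.06 (limma adjusted p = 0.0246). It was the 1 call among the 177 measured genes of all these lists, where 1.09% of all tested probe sets were called. That call was lost without any 1 heart and when probe sets without a symbol were tested too (adjusted p up to 0.0991 over the alternatives). The mean over the fibroblast list was 9.14 to 9.31 in Ppif-/- and 9.10 to 9.36 in WT hearts.

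Fcgr3, Fcgr2b and Fcgr4 lie in a cluster on chromosome 1 with Fcer1g nearby, and Cd68 lies on chromosome 11. Of the 10 measured genes nearest to Fcgr3, 5 on each side, 0 passed in limma. The 1 with an unadjusted p under 0.05 was the succinate dehydrogenase subunit Sdhc (-0.28, adjusted p = 0.136). The other 9 were Fcrlb (0.19), Fcrla (0.08), Fcgr2b (-0.17), Gm10522 (-0.05), Fcgr4 (0.03), Cfap126 (0.23), Pcp4l1 (0.12), Nr1i3 (0.03) and Tomm40l (0.24). Of the 10 nearest to Cd68, 0 passed in limma, and an unadjusted p under 0.05 was found for 2, Fxr2 (-0.21) and Slc35g3 (-0.18). The other 8 were Shbg (0.13), Sat2 (-0.12), Sox15 (-0.02), Mpdu1 (0.08), Eif4a1 (-0.01), Senp3 (-0.12), Polr2a (-0.04) and Zbtb4 (0.05).

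With 25 genes on each side, a width chosen after the data were seen, 4 of 50 neighbours of Fcgr3 passed, where 1.09% of all tested probe sets did. These were Hsd17b7, an enzyme of cholesterol synthesis (2.14), Apoa2, an apolipoprotein of HDL (0.88), the prefoldin subunit Pfdn2 (0.39) and Olfml2b (-1.14), and the groups did not overlap for 19 of the 50, where 19.8% of all tested probe sets did not overlap. Around Cd68 1 of 50 passed, the clock gene Per1 (1.07), and 9 of 50 did not overlap, near the share among all tested probe sets. The Ppif-/- mice started on Sv129, so a difference in the alleles at a locus and an effect of the missing Ppif cannot be told apart here.

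**Figure D4:**
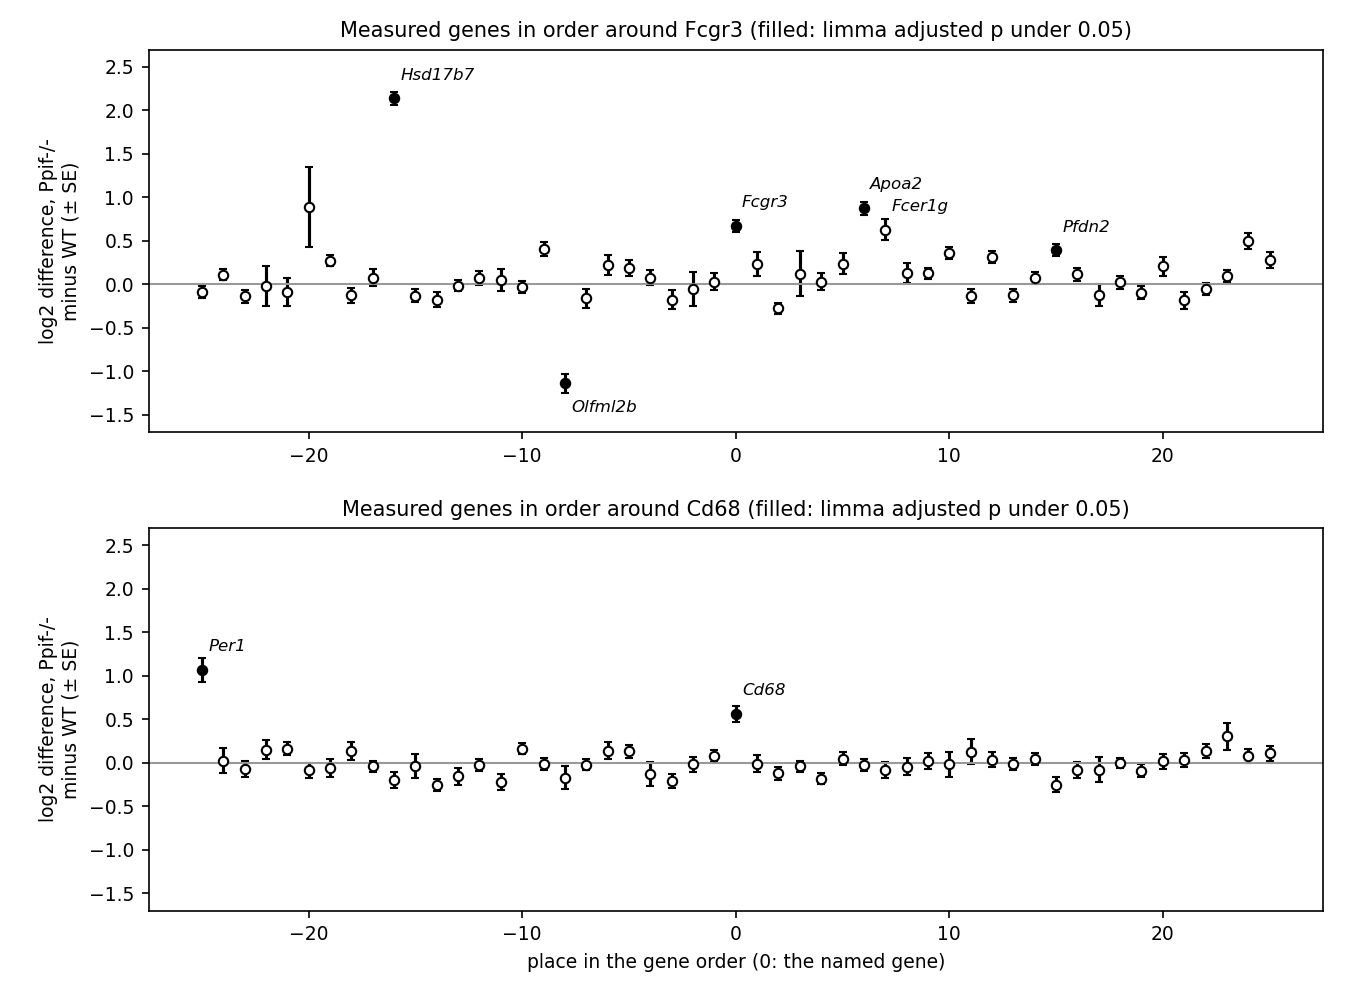
Log2 difference (Ppif-/- minus WT, ± SE of the fit) of the measured genes in order along the chromosome, 25 on each side of Fcgr3 (top) and of Cd68 (bottom), with filled points where the limma adjusted p was under 0.05. Around Fcgr3, Hsd17b7, Olfml2b, Apoa2 and Pfdn2 are filled and Fcer1g (0.63) is open; around Cd68, only Per1 is filled beside it.

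Likeness to Fcgr3 and Cd68 was measured as the root mean square difference between log2 profiles over the 6 hearts, each centred on its own mean. The 3 genes nearest to Fcgr3 were the phosphatase Acp1 (0.0377), the titin cap gene Tcap (0.0398) and Dedd2, a gene of the death effector domain family (0.0687). Their differences between genotypes were 0.71, 0.68 and 0.66. Acp1 was represented by 1 of its 5 probe sets, of which another stood at -1.83. Nearest to Cd68 were the dynein light chain Dynll1 (0.0463), the Y-linked demethylase Kdm5d (0.0491) and Cd84 (0.0561), an adhesion receptor of leukocytes. They differed by 0.49, 0.49 and 0.58. Cd84 was at 5.59, 5.42 and 5.39 in Ppif-/- and at 4.89, 4.98 and 4.77 in WT hearts, without overlap. Kdm5d was at 8.13, 7.95 and 8.04 in Ppif-/- and at 7.57, 7.62 and 7.47 in WT hearts. Whether sex differed between the genotypes was not tested. All these genes were picked for their likeness over the same hearts, so such differences and gaps follow from the choice and test nothing. Whether any of them lies near Fcgr3 or Cd68 on a chromosome was not examined.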

How the data were processed

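Values are log2 expression per probe set as the authors deposited them, made with RMA per the submitters' processing notes. The software, its version, filters and batches were not given in the sources used here. Names come from the platform annotation, and 21698 of the 21789 probe sets with 1 symbol were matched by Entrez identifier to RefSeq genes of GRCm38.p6. A gene is its probe set with exactly 1 symbol and the highest mean. Listed genes without one were not analysed here. Alternatives changed the probe sets tested, the normalisation, the variance model, the block and the hearts included.

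The genotypes were compared in limma 3.58.1 under R 4.3.3, using lmFit and eBayes without covariates, and tests were 2-sided. P-values set each difference against the spread between 3 hearts per group, which eBayes moderates with the spread of all tested probe sets. The number of arrays limits their precision. Members and lists were chosen with earlier results of these data known, so no p is adjusted over a list. Named were all members, Ppif, in each list the passing genes (at most 4) or the 2 with the smallest p, the 5 nearest genes on each side of passing members, and the 3 genes most like them. Other names were chosen after their values were seen. On simulated arrays of this comparison (23410 probe sets, 200 changed), the share recovered was 58% for a log2 change of 0.5, 88% for 1, and 100% for 2 and for 3. Of the calls 6.49% were false, and 0 calls were made when nothing changed. The simulation drew each probe set independently and only once. Deviations of a real heart can be shared by many genes, so these shares may not hold for the data.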

Additional observations from a re-analysis of the deposited data

How the results depend on the processing

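Over 17 alternatives (16 for Fcgr1, Fcgr2b and Cd14) the differences of the 10 genes kept their sign, and Fcgr3 passed in each of the 17 (limma adjusted p = 0.00142 to 0.0256). Cd68 passed in 9 of 17, and none of the other 8 genes passed in any. As reported, the counts were 254 probe sets, 2 of the 10 genes and 1 listed gene. Testing probe sets without a symbol too gave 131, 1 and 0, with Cd68 at an adjusted p of 0.124. The replicate number as a block gave 160, 1 and 0, with Cd68 at 0.0980. The numbers did not pair the hearts (correlations of deviations -0.08, -0.06 and 0.12 for numbers 1, 2 and 3, and 2 of 6 hearts nearest to their own number). Leaving out 1 heart gave 131 to 171 probe sets, 1 of the 10 genes each time (Fcgr3), 0 to 1 listed genes, and Cd68 at 0.0551 to 0.145; the count was 139, 131, 149, 158 and 147 without Ppif-/- hearts 2 and 3 and WT hearts 1, 2 and 3. The brighter probe sets alone gave 405 and 3 listed genes, and left out Fcgr1, Fcgr2b and Cd14, so the median over the genes moved from 0.01 to 0.15. A variance trend gave 453 and 6 listed genes, array weights 386 and 6, and quantile normalisation and median centring 3 listed genes each. Beyond Pdgfra, listed genes passing under some setting were Fcer1g, Mertk, Ccr2, Vsig4, Pdgfrl and Ryr2. Taking the mean over a gene's probe sets changed nothing for the 10 genes, which have 1 each. It is counted among these alternatives but repeats the reported fit, so its outcome was fixed in advance. The 3 arrays per group limit the precision, and without detection calls the dim end of the scale was not tested.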
